A study of Homo sapiens with 11 samples.

Results

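Protein disulfide isomerases are thioredoxin-fold enzymes of the endoplasmic reticulum (ER) that form, break and rearrange the disulfide bonds of proteins entering the secretory pathway. Their active-site cysteines take electrons from client proteins and pass them to oxidases such as ERO1, and several members also hold unfolded clients or dock on lectin chaperones. Many of their genes belong to the programme that the unfolded protein response switches on when misfolded proteins build up, and the sensors of that response (ATF6, IRE1 and PERK) are themselves handled by members of the family. The compounds AA132 and AA147 are reported to modify proteins of this family, which makes the level of the transcripts that encode them a measure of interest under both.

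The genes described here are 10 members chosen by name, P4HB, PDIA3, PDIA4, PDIA5, PDIA6, TXNDC5, TXNDC11, TXNDC12, ERP44 and TMX1, out of 38019 genes in the count table. Each had 1 row, and all 10 passed the filter on low counts, which kept 17792 genes. The cells were HEK293T, an established human embryonic kidney line, labelled wild type and treated for 6 h in all groups. The vehicle group received 0.1% DMSO, and the other groups received thapsigargin (Tg, an inhibitor of the calcium pump of the ER) at 500 nM, AA147 at 10 µM, or AA132 at 0.1, 0.3, 1, 3, 6, 10, 15 or 30 µM. Each of the 11 conditions had 3 numbered libraries. It is not given whether these are separate cultures, so p-values measure only the spread between these libraries, which may be technical.

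The 33 libraries held 32.3 to 37.96 M counts, and the lowest count of any member in any library was 370, for PDIA5. Of 7 markers expected in HEK293T cells, 6 were at or above 1 CPM in every library, and of 9 markers of other cell types 6 stayed at or under 0.2 CPM and CDH5 at or under 0.218 CPM, while CD68 (9.55 to 15.0 CPM) and COL1A1 (19.7 to 49.8 CPM) were expressed. CPM, used throughout, is the count scaled to the TMM-adjusted library size. A pair of libraries went against their dose labels. In AA132 at 1 µM, library 1 had 667 CPM of PDIA4 and 1660 CPM of HSPA5 (the ER chaperone BiP), against 466 and 474 CPM of PDIA4 and 1028 and 1092 CPM of HSPA5 in the other libraries, and in AA132 at 3 µM, library 3 had 466 CPM of PDIA4 and 1042 CPM of HSPA5, against 716 and 723 CPM and 1920 and 1969 CPM. An exchange of these 2 libraries is possible and was not tested. They were kept under their labels, every value at 1 and 3 µM depends on that, and the members' results at those doses are also given without them. All conditions share 1 fit for the spread, so p-values of comparisons that do not hold these libraries depend on them too. In 4 other libraries (vehicle 1, AA132 10 µM 1, AA147 1 and AA132 30 µM 3) the deviation from the other libraries of the group, over 10289 genes, was more than 1.5 times the difference between those, with the largest ratio, 2.70, in vehicle 1, and counts of members were repeated without them. All comparisons with vehicle share the same 3 vehicle libraries.

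Upstream sequence was read to set the members' measured responses beside the elements their promoters hold, in windows from 250 bases before to 50 bases after the canonical GENCODE v44 transcript start on GRCh38. The ER stress response element was searched on both strands as CCAAT and CCACG with 9 bases of any kind between them, and its CCAAT part was also searched alone. An exact match lay in 0.105% of 20032 protein-coding windows and, among the members, in PDIA6, from base -86 to base -68 relative to the start. With at most 1 mismatch the share was 1.87%, and PDIA3 joined, from base -76 to base -58. The letters TGACGTGG, the core of a site bound by ATF6 and XBP1, lay in 0.809% of windows and in TXNDC11, just after its start. CCAAT alone lay in 36.1% of windows and in 7 members (P4HB, PDIA3, PDIA4, PDIA6, TXNDC5, ERP44 and TMX1). The stretches below are the matches to the longer elements and, for comparison, the CCAAT nearest to the start of PDIA4, the member with the largest response, with the matching letters in capitals.
PDIA6, chr2:10812847-10812876, minus strand: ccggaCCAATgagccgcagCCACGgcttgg
PDIA3, chr15:43746357-43746386, plus strand: cgcagCCAATcagcggctgCCACacagcgg
TXNDC11, chr16:11742834-11742863, minus strand: ggcggcgcggcTGACGTGGagcgtccgggt
PDIA4, chr7:149028531-149028560, minus strand: ctccgccccctgCCAATcgccggggacgac
The PDIA3 stretch differs from the element in the last of its CCACG letters. No member window held ATTGG and CCACG with 1 base between them (another ER stress element, 0.070% of windows) or TGATGNAAT (a form of the element bound by ATF4, 0.599%), and TGACNNNGC (the core of the antioxidant response element, 14.0%) lay only in that of PDIA5. Part of the 250 bases before the start lay in exons of other transcripts of the same gene. This part was 176 bases in P4HB, 157 in PDIA4, 85 in TMX1, 54 in PDIA6, 52 in ERP44 and 44 in PDIA3. Elements before the starts of those transcripts can lie outside the windows, so the lack of a match in PDIA4 or P4HB covers these windows only. A match is a description of the letters in these windows and not evidence of binding.

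In vehicle-treated cells, counts per kilobase of canonical transcript were highest for P4HB, at 361 ± 35.1 CPM per kb (mean ± SD, n = 3), followed by PDIA6 at 218 ± 13.9 and PDIA4 at 161 ± 1.55. TXNDC12 (76.0 ± 5.00) and PDIA3 (56.0 ± 6.01) were lower, and TXNDC5, ERP44, TXNDC11 and TMX1 lay between 13.3 and 32.0 CPM per kb. PDIA5 was the lowest, at 5.86 ± 0.439 CPM per kb. The standing of TXNDC5 depends on a neighbouring row. The read-through gene BLOC1S5-TXNDC5 covers 90.5% of the exon bases of canonical TXNDC5 on the same strand, and its row held 87.6% ± 0.762 of the reads of both rows in vehicle. With those reads added, TXNDC5 stood at 258 ± 11.2 CPM per kb, between P4HB and PDIA6 in mean level.

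Tg raised 8 of the 10 members (adjusted p under 0.05, edgeR quasi-likelihood F-test with Benjamini-Hochberg adjustment over all genes), where 16.2% of all genes tested were called higher. The members outside that count were TXNDC12 and TMX1. The libraries of 9 members lay wholly above the vehicle libraries, as did those of 20.2% of genes tested. The median log2 fold change of the members was 1.06, against 0.0049 over all genes tested. The 8 calls remained in every alternative fit. In bulk RNA, more cells expressing a gene and more RNA per cell cannot be told apart.

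PDIA4 (chr7:149003062-149028662, minus strand, 10 exons), which has several active domains and acts on secreted and membrane proteins, moved most under Tg. Its vehicle libraries held 450.0, 441 and 445 CPM and its Tg libraries 3151, 3204 and 3318 CPM. No library came near the other group. The log2 fold change was 2.86 (95% confidence interval 2.62 to 3.09; 7.24-fold; edgeR adjusted p = 1.86e-19).

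PDIA6 (chr2:10783391-10837977, minus strand, 13 exons), which works with BiP and acts on the stress sensors, held 528, 499 and 464 CPM in vehicle and 1316, 1302 and 1349 CPM under Tg, a log2 fold change of 1.41 (1.27 to 1.55; edgeR adjusted p = 1.94e-17). PDIA3 (chr15:43746394-43773279, plus strand, 13 exons), which is brought to glycoproteins by calnexin and calreticulin and sits in the peptide-loading complex, held 223, 214 and 181 CPM in vehicle and 446, 441 and 464 CPM under Tg, a change of 1.13 (0.98 to 1.27; edgeR adjusted p = 1.62e-14). P4HB (chr17:81843159-81860856, minus strand, 11 exons), the founding isomerase and also a subunit of collagen prolyl 4-hydroxylase and of the microsomal triglyceride transfer protein, held 978, 831 and 828 CPM and 1593, 1617 and 1719 CPM, a change of 0.90 (0.77 to 1.03; edgeR adjusted p = 1.73e-13). For these genes the groups did not overlap, and vehicle library 1 was the highest of its group. P4HB, the most abundant of them per length, had the smallest log2 change of the 8 called members with each row taken alone.

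PDIA5 (chr3:123067025-123225227, plus strand, 17 exons), a low-abundance member linked to the activation of ATF6, held 11.6, 10.9 and 9.97 CPM in vehicle and 26.1, 28.6 and 26.8 CPM under Tg, a log2 fold change of 1.33 (1.11 to 1.55; edgeR adjusted p = 5.03e-12). ERP44 (chr9:99979185-100099052, minus strand, 12 exons), which cycles between the ER and the Golgi and retrieves clients such as ERO1, held 131, 108 and 104 CPM and 231, 227 and 222 CPM, a change of 0.99 (0.84 to 1.14; edgeR adjusted p = 9.26e-13). TXNDC11 (chr16:11679083-11742857, minus strand, 12 exons), a membrane-anchored partner of the EDEM mannosidases in ER-associated degradation, held 46.7, 47.1 and 46.4 CPM and 113, 105 and 106 CPM, a change of 1.21 (1.07 to 1.35; edgeR adjusted p = 6.81e-16). Every Tg library of these genes lay above every vehicle library.

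TXNDC5 (chr6:7881517-7910788, minus strand, 10 exons), a soluble member that rapidly introduces disulfides, held 94.4, 90.1 and 97.6 CPM in vehicle and 190.0, 194 and 176 CPM under Tg, a log2 fold change of 0.99 (0.84 to 1.14; edgeR adjusted p = 9.14e-13). The value for this row alone is uncertain, because its counts were fractional in 33 of 33 libraries and most reads stood on the read-through row. That row changed by 0.68 on the log2 scale (0.56 to 0.80; edgeR adjusted p = 2.06e-11). With both rows summed the change was 0.72 (edgeR adjusted p = 1.35e-12), the 2 rows together holding 758 ± 32.9 CPM in vehicle-treated and 1252 ± 19.4 CPM in Tg-treated cells, and the call stood.

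TXNDC12 (chr1:52020131-52055191, minus strand, 7 exons), a small soluble member with a single thioredoxin domain, held 116, 105 and 102 CPM in vehicle and 108, 108 and 108 CPM under Tg. The Tg libraries fell within the vehicle range, and the log2 fold change was 0.0050 (-0.11 to 0.12; edgeR adjusted p = 0.961). The interval ends at 0.12 on the log2 scale, below the change of each called member. TXNDC12 shares 80.6% of its canonical exon bases with another same-strand gene model in GENCODE v44, so its counts may include or lack reads of that model. TMX1 (chr14:51240162-51257655, plus strand, 8 exons), a membrane-bound member found at contacts between ER and mitochondria, held 43.3, 57.6 and 59.3 CPM and 60.4, 60.6 and 63.1 CPM. Vehicle library 1 was low, the others were near the Tg libraries, and the change was 0.20 (-0.030 to 0.43; edgeR adjusted p = 0.188). Without the 4 libraries that stand apart it was 0.064 (edgeR adjusted p = 0.522).

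**Figure D1:**
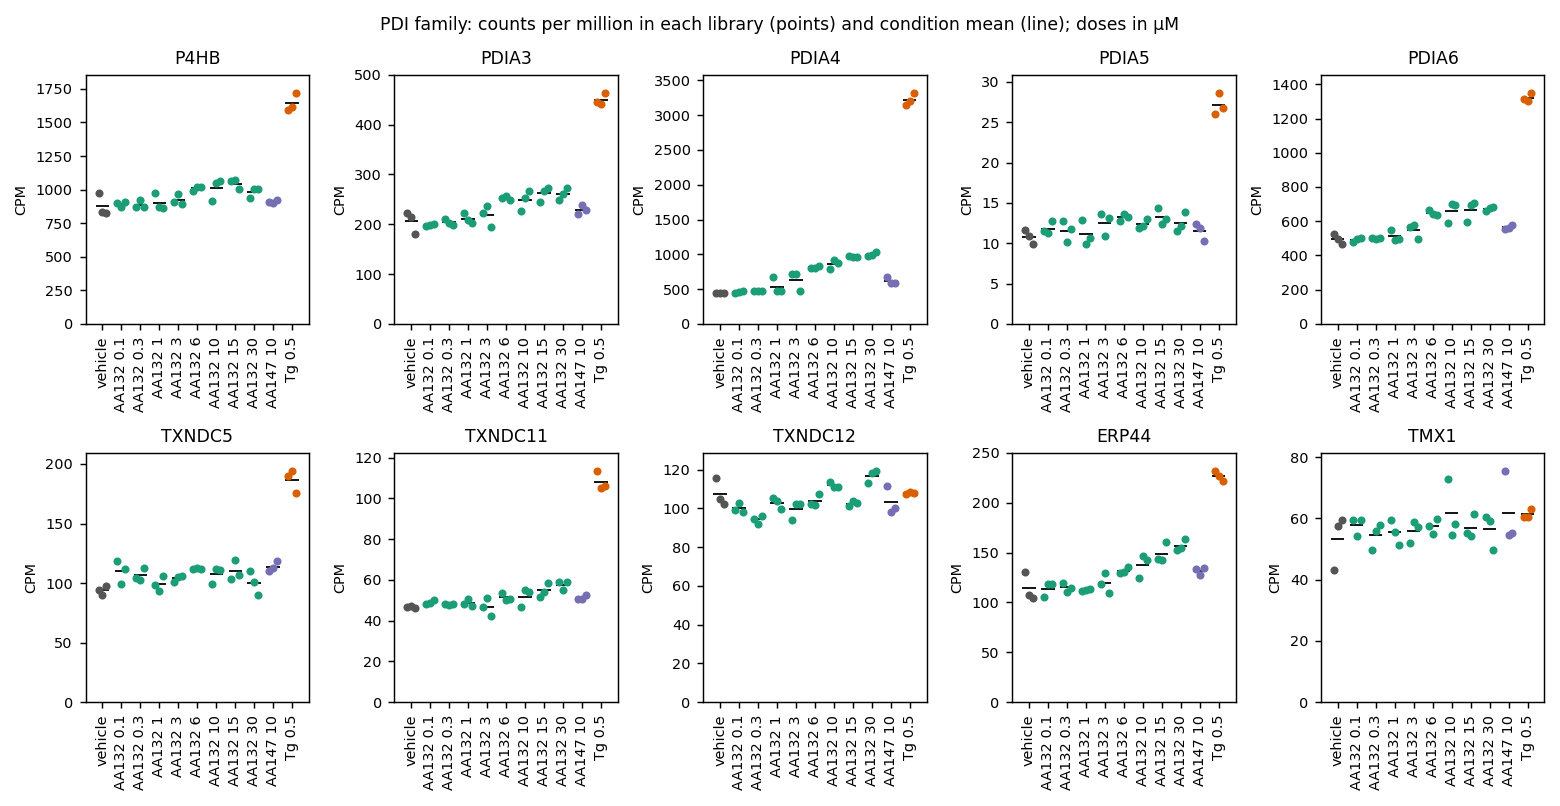
CPM of each member in each of the 33 libraries (points) with the mean of each condition (line), for vehicle, 8 AA132 doses, AA147 and Tg. The Tg libraries stand above all others for 8 members, PDIA4 climbs over the AA132 doses, and AA132 1 µM library 1 and 3 µM library 3 are out of place for PDIA4.

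AA132 raised up to 5 of the 10 members at a dose, and which of them passed the test depended on the dose. PDIA4 was called from 3 µM, PDIA3 and PDIA6 from 6 µM, ERP44 at 15 and 30 µM, P4HB at 15 µM and TXNDC11 at 30 µM, while PDIA5, TXNDC5, TXNDC12 and TMX1 were called at no dose by edgeR with all libraries. In that fit 0 members were called lower at any dose. Other fits called TXNDC5 at 6 µM (DESeq2 adjusted p = 0.0335) and, without the 4 libraries that stand apart, at 6, 10 and 15 µM, and TXNDC12 at 30 µM without vehicle library 1 (log2 0.18, edgeR adjusted p = 0.0406). Those TXNDC5 calls are of its row alone. Summed with the read-through row, it held 797, 766 and 796 CPM at 6, 10 and 15 µM, against 758 CPM in vehicle. With the rows summed and all libraries kept, edgeR called TXNDC5 at none of these doses. At 0.1, 0.3 and 1 µM, 0 of 10 members and 0% of all genes tested were called by edgeR, and 0 members by DESeq2 and by limma voom. At an unadjusted p under 0.05 there were 1, 2 and 1 members at these doses, and 798, 980 and 1056 genes.

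At 3 µM, 1 member was called (0.101% of all genes called higher), and at 6 and 10 µM 3 were called (0.866% and 1.03% of genes). At 15 and 30 µM, 5 members were called (1.97% and 3.86% of genes). The libraries of 5 members lay wholly above vehicle at 30 µM, as did 10.1% of genes tested. The median log2 fold change of the members was 0.21 at 10 µM and 0.26 at 30 µM, against 0.010 and -0.0013 over all genes. Without the 4 libraries that stand apart, 6 members were called at 6 µM (P4HB, PDIA3, PDIA4, PDIA6, TXNDC5 and ERP44) and 7 at 10 µM (the same 6 and TXNDC11). The count at 10 µM was 5 with DESeq2, which added P4HB and ERP44, and 1 at 6, 10, 15 and 30 µM, PDIA4 alone, when a change of at least 1.2-fold was required or when only the 2 groups compared were fitted. The shares of all genes given above are those of the edgeR fit of all libraries. A change of fit can move the calls of any gene, so the counts from other fits are not read as results about the family.

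PDIA4 went from 441, 461 and 468 CPM at 0.1 µM and 479.5, 472 and 468 CPM at 0.3 µM to 667, 466 and 474 CPM at 1 µM and 716, 723 and 466 CPM at 3 µM. From there it reached 805, 809.8 and 827 CPM at 6 µM, 789.7, 925 and 872 CPM at 10 µM, 973, 955 and 955 CPM at 15 µM and 969, 984 and 1037 CPM at 30 µM. Neighbouring doses overlapped in their libraries from 0.3 to 3 µM, between 6 and 10 µM and between 15 and 30 µM, whereas 3 and 6 µM, and 10 and 15 µM, did not, and those of 0.1 and 0.3 µM met at 468 CPM without crossing. The log2 fold changes against vehicle were 0.51 (0.29 to 0.73) at 3 µM, 0.87 (0.65 to 1.09) at 6 µM, 0.95 (0.73 to 1.17) at 10 µM, 1.11 (0.89 to 1.33) at 15 µM and 1.16 (0.94 to 1.38; 2.24-fold; edgeR adjusted p = 1.47e-08) at 30 µM. The group mean was 814 CPM at 6 µM and 997 CPM at 30 µM, where that of Tg was 3224 CPM.

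The PDIA4 values at 1 and 3 µM turn on the libraries that went against their labels. With all libraries the log2 fold change was 0.27 at 1 µM (edgeR adjusted p = 0.792) and 0.51 at 3 µM (edgeR adjusted p = 0.0401). Without them it was 0.076 at 1 µM (edgeR adjusted p = 0.972) and 0.69 at 3 µM (edgeR adjusted p = 3.40e-08). The call at 3 µM was lost when either 3 µM library 1 or 2 was left out (edgeR adjusted p = 0.469 and 0.42), and without vehicle library 2 or 3 (0.116 and 0.0946). For PDIA6 the 3 µM log2 fold change was 0.14 with all libraries and 0.20 without them (edgeR adjusted p = 0.299), not called either way. Without these libraries the 9 members other than PDIA4 lay between -0.083 (TXNDC12) and 0.085 (TXNDC5) at 1 µM, and between -0.13 (TXNDC12) and 0.20 (PDIA6) at 3 µM, against -0.065 to 0.078 and -0.11 (TXNDC12) to 0.22 (PDIA5) with all libraries. In both fits 0 of these 9 were called at either dose. P4HB, PDIA3, PDIA5 and PDIA6 had values above 0 at 1 µM with all libraries and below 0 without them. At an unadjusted p under 0.05 there were then 0 members at 1 µM and 4 at 3 µM (PDIA3, PDIA4, PDIA6 and TXNDC12), against 1 and 2.

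PDIA6 held 664, 639.8 and 635 CPM at 6 µM and 658, 677 and 685 CPM at 30 µM, all above its vehicle libraries of 464 to 528 CPM. Its log2 fold change was 0.38 (0.24 to 0.52; edgeR adjusted p = 0.0012) at 6 µM and 0.44 (0.30 to 0.58; edgeR adjusted p = 6.17e-05) at 30 µM. The level reached at 6 µM and that at 30 µM thus lay close together, and libraries of the doses between them ranged from 589 to 706 CPM. AA132 10 µM library 1 and 15 µM library 1 were the low ones, at 589 and 593 CPM. PDIA6 shares 45.3% of its canonical exon bases with the antisense gene ATP6V1C2, and the use of strand in counting is not given.

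PDIA3 held 254, 257 and 249 CPM at 6 µM and 248, 261 and 274 CPM at 30 µM, above its vehicle libraries of 181 to 223 CPM. The log2 fold change was 0.30 (0.15 to 0.44; edgeR adjusted p = 0.0251) and 0.34 (0.20 to 0.49; edgeR adjusted p = 0.00232). The calls at 6 and 10 µM depended on the set of libraries fitted. The 6 µM call was lost without vehicle library 3 (log2 0.21, edgeR adjusted p = 0.155). It was also lost when any of the 6 µM libraries was left out (edgeR adjusted p = 0.069 to 0.116), although the log2 fold change stayed at 0.29 to 0.31. The 10 µM call was lost without vehicle library 2 or 3 (0.0535 and 0.219) or 10 µM library 2 or 3 (0.118 and 0.211).

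ERP44 held 125, 146.8 and 142 CPM at 10 µM, 144, 142 and 160.3 CPM at 15 µM and 153, 155 and 164 CPM at 30 µM, against 131, 108 and 104 CPM in vehicle. The 10 µM libraries overlapped the high vehicle library 1, and those at 15 and 30 µM did not. Its log2 fold change was 0.27 at 10 µM (edgeR adjusted p = 0.0515), 0.38 (0.23 to 0.53; edgeR adjusted p = 0.00164) at 15 µM and 0.46 (0.31 to 0.61; edgeR adjusted p = 0.000102) at 30 µM. Without vehicle library 1 it was called from 6 µM (log2 0.32, edgeR adjusted p = 0.0088), and without 10 µM library 1 it was called at 10 µM (0.0166).

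P4HB held 989, 1017 and 1019 CPM at 6 µM, 1064, 1068 and 1001 CPM at 15 µM and 937, 1001 and 1004 CPM at 30 µM, where vehicle library 1 (978 CPM) stood well above vehicle libraries 2 and 3 (831 and 828 CPM). The log2 fold change was 0.20 (edgeR adjusted p = 0.134), 0.25 (0.12 to 0.38; edgeR adjusted p = 0.0214) and 0.16 (edgeR adjusted p = 0.127). Without vehicle library 1 the gene was called at 6, 10 and 30 µM as well (edgeR adjusted p = 0.00727, 0.00642 and 0.00799), and without 10 µM library 1 at 10 µM (0.0268). The 15 µM call was lost without vehicle library 2 or 3 (0.0799 and 0.094) or 15 µM library 1 or 2 (0.0909 and 0.0974). Its whole range over the AA132 libraries was 863 to 1068 CPM, below every Tg library.

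TXNDC11 held 59.0, 54.9 and 59.1 CPM at 30 µM, all above vehicle, with a log2 fold change of 0.30 (0.17 to 0.44; edgeR adjusted p = 0.0046). At 15 µM it was 0.23 (edgeR adjusted p = 0.0574), and DESeq2 called it there (0.0225). Of the members that edgeR called at no dose with all libraries, PDIA5 had its highest mean at 15 µM, with 14.4, 12.3 and 13.0 CPM and a log2 fold change of 0.29 (0.075 to 0.51; edgeR adjusted p = 0.144). TXNDC5 held 119, 99.1 and 112 CPM at 0.1 µM and 109.8, 101 and 89.8 CPM at 30 µM, and its log2 fold changes lay between 0.078 and 0.25. With the read-through row added, the TXNDC5 log2 fold change at 30 µM was 0.030 (edgeR adjusted p = 0.816). TXNDC12 was lowest at 0.3 µM (94.5, 92.1 and 96.3 CPM) and highest at 30 µM (113, 118 and 119 CPM), and TMX1 at 30 µM held 60.3, 59.2 and 49.7 CPM, with a log2 fold change of 0.079 (-0.15 to 0.31).

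The slope on log10 dose, fitted over the 24 AA132 libraries without vehicle, was called above 0 for 7 members, where 9.82% of the 17553 genes tested were. For each 10-fold rise in dose, PDIA4 rose by 0.51 on the log2 scale (0.44 to 0.59; edgeR adjusted p = 3.10e-11), PDIA6 by 0.22 (0.17 to 0.27), ERP44 by 0.19 (0.14 to 0.24) and PDIA3 by 0.18 (0.14 to 0.23). P4HB, TXNDC11 and TXNDC12 rose by 0.093, 0.091 and 0.085 (edgeR adjusted p = 0.000688, 0.00623 and 0.00191). TXNDC12 was thus called for its slope, while with all libraries edgeR called it at no dose against vehicle. Without the 30 µM dose the slopes of TXNDC11 and TXNDC12 no longer passed (edgeR adjusted p = 0.112 and 0.0609). The slopes of PDIA5 (0.073; edgeR adjusted p = 0.132), TMX1 (0.021; 0.654) and TXNDC5 (-0.0098; 0.83) were not called.

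**Figure D2:**
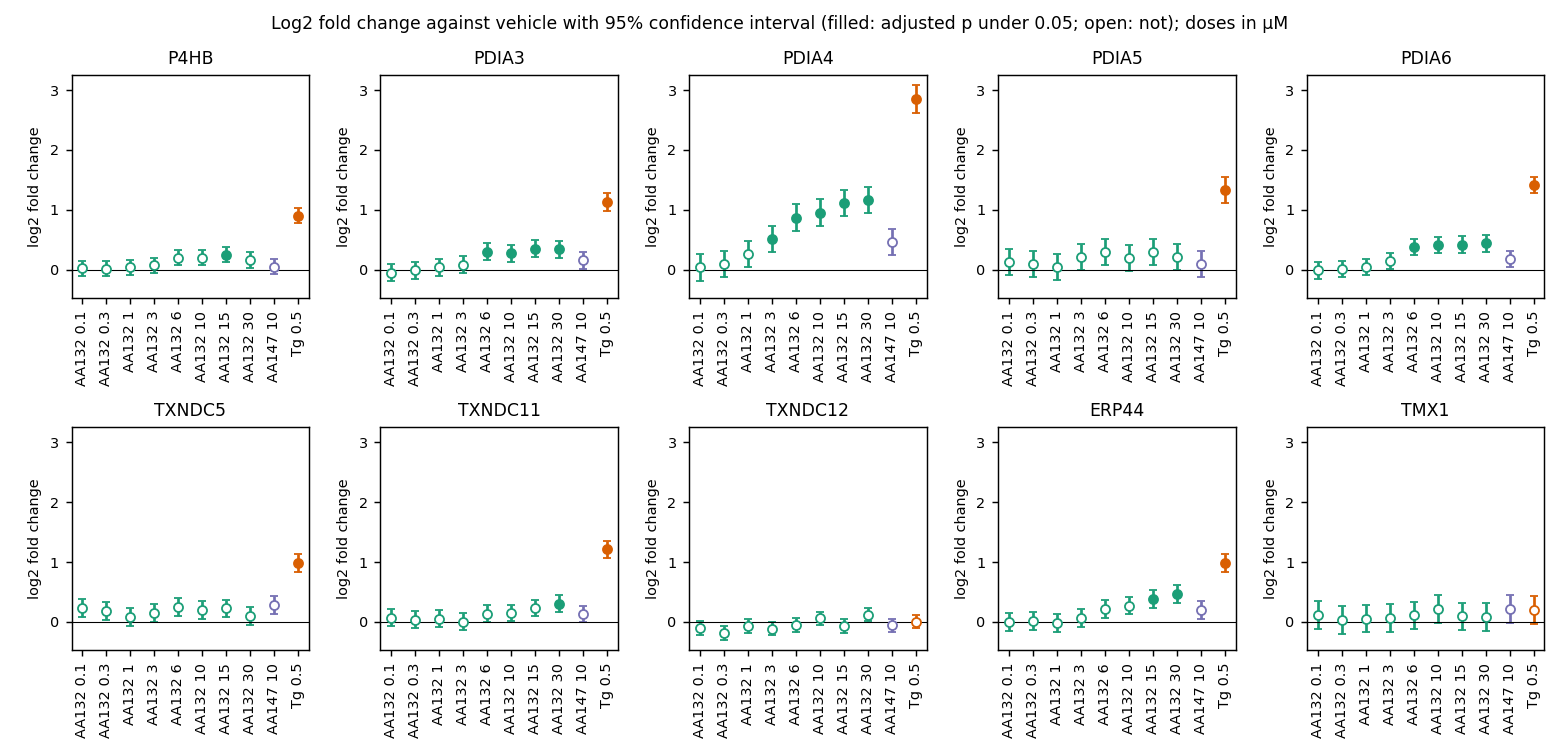
Log2 fold change against vehicle (points) with its 95% confidence interval (bars) for each member at 8 AA132 doses (µM), AA147 at 10 µM and Tg at 0.5 µM; filled points have an edgeR adjusted p under 0.05. PDIA4 reaches 1.16 at 30 µM AA132 and 2.86 under Tg, while TXNDC12 and TMX1 have open points throughout.

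AA147 at 10 µM gave no call among the members in the edgeR fit of all libraries. By edgeR 0 of 10 were called, where 0.00562% of all genes were called higher, and at an unadjusted p under 0.05 there were 5 members (PDIA3, PDIA4, PDIA6, TXNDC5 and ERP44) and 1211 genes. DESeq2 called 1 member, PDIA4, and limma voom 0. The libraries of 4 members (PDIA4, PDIA6, TXNDC5 and TXNDC11) lay wholly above vehicle, as did 3.99% of genes tested. The median log2 fold change of the members was 0.17, against 0.0047 over all genes. 

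PDIA4 held 668, 593 and 581 CPM with AA147, all above its vehicle libraries, with library 1 the highest. Its log2 fold change was 0.46 (0.24 to 0.68; edgeR adjusted p = 0.149). DESeq2 gave 0.47 (adjusted p = 0.0293), and without the libraries that went against their dose the edgeR adjusted p was 1.94e-05 at a log2 fold change of 0.46. Those libraries are in neither group compared here. The standard error, drawn from a spread shared by all conditions, was 0.108 with them and 0.0548 without them. PDIA6 held 552, 558 and 580.1 CPM, a change of 0.18 (0.044 to 0.32; edgeR adjusted p = 0.591), also without overlap with vehicle. TXNDC5 held 110.1, 113 and 118 CPM (0.27; 0.13 to 0.42; edgeR adjusted p = 0.288), and with the read-through row added its change was 0.048.

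Without the 4 libraries that stand apart, TXNDC5 (0.30; edgeR adjusted p = 0.0486) and ERP44 (0.30; 0.0213) were called under AA147 and PDIA4 was not (0.40; 0.122). ERP44 held 133, 127 and 134 CPM with AA147, within reach of the high vehicle library 1 at 131 CPM. TMX1 held 75.4, 54.7 and 55.4 CPM, a single high library of the kind also seen at 10 µM AA132 (73.0, 54.5 and 58.1 CPM). Both high libraries are among the 4 that stand apart, and without those the TMX1 change under AA147 went from 0.21 to -0.087, not called in either fit. P4HB (0.046), PDIA5 (0.093) and TXNDC12 (-0.058) lay nearest to vehicle.

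AA132 and AA147 were compared directly at their 1 matched dose, 10 µM, with the same time of 6 h. Of the 10 members 0 differed at an edgeR adjusted p under 0.05, where 0.0562% of all genes were called higher with AA132. At an unadjusted p under 0.05 there were 4 members (P4HB, PDIA4, PDIA6 and TXNDC12) and 1426 genes. DESeq2 called 1 member, PDIA4, and limma voom 0. The libraries of PDIA4 and PDIA6, 2 members, were all higher with AA132, as were those of 5.46% of genes.

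PDIA4 held 789.7, 925 and 872 CPM with AA132 and 668, 593 and 581 CPM with AA147. Every AA132 library was above every AA147 library, and the log2 difference was 0.49 (0.27 to 0.71; edgeR adjusted p = 0.0662). It passed with DESeq2 (adjusted p = 0.00866), without 10 µM library 1 (0.0294), without the 2 libraries that went against their dose (3.29e-06) and without the 4 that stand apart (log2 0.62; 0.00586). PDIA6 differed by 0.23 (0.095 to 0.37; edgeR adjusted p = 0.25) and was called without 10 µM library 1 (log2 0.30; 0.0318). P4HB differed by 0.15 (0.026 to 0.28; edgeR adjusted p = 0.487), and 0.22 without the 4 libraries that stand apart (0.0425).

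For 6 of the other 7 members the interval of the difference spanned 0, and that of TXNDC12 ended just above it. PDIA3 differed by 0.11 (-0.029 to 0.26), ERP44 by 0.069 (-0.081 to 0.22), TXNDC11 by 0.015 (-0.12 to 0.15) and TXNDC12 by 0.12 (0.0011 to 0.23). TXNDC5 had the 1 difference below 0, at -0.082 (-0.23 to 0.067), and the widest intervals were those of PDIA5 (-0.12 to 0.32) and TMX1 (-0.23 to 0.23). These intervals allow differences in either direction, or above 0 for TXNDC12, and do not show that the compounds act alike on these genes.

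**Figure D3:**
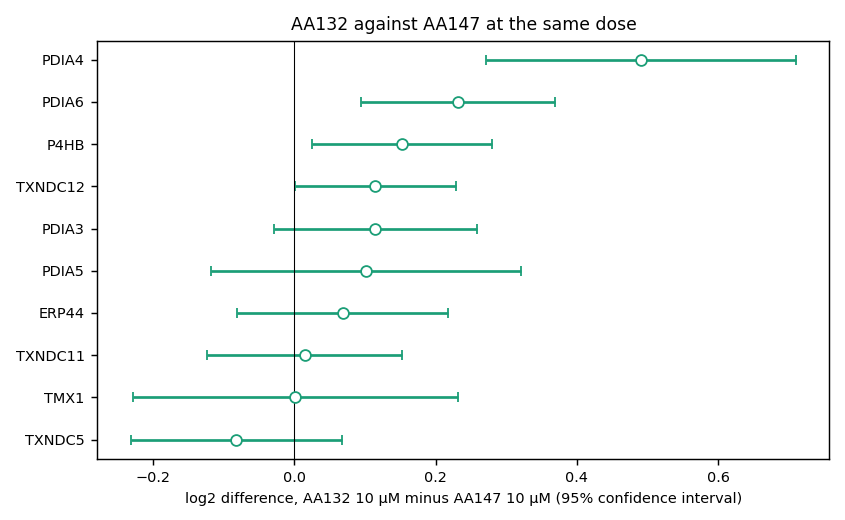
Log2 difference between AA132 and AA147 at 10 µM (x axis; open points) with its 95% confidence interval for each member (y axis). PDIA4 lies farthest from 0, at 0.49, and no member has an edgeR adjusted p under 0.05.

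Set beside Tg, AA132 at 30 µM left 8 members lower, the same 8 that Tg raised, where 15.5% of all genes were lower. The agents differ in dose and kind, and the comparison serves to place the levels. PDIA4 was lower by 1.69 on the log2 scale (log2 difference -1.69; -1.92 to -1.47; edgeR adjusted p = 6.59e-14), and ERP44 by the least of the 8, at -0.53 (-0.68 to -0.38; edgeR adjusted p = 7.68e-07). TXNDC12 (0.12; 0.0020 to 0.23; edgeR adjusted p = 0.12) and TMX1 (-0.12; -0.35 to 0.11) were not called.

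The make-up of the family differed with its level. The members summed to 2454 ± 148 CPM in vehicle, 2787 ± 48.7 with AA147, 3265 ± 237 at 10 µM and 3412 ± 89.0 at 30 µM AA132, and 7358 ± 169 under Tg. These sums leave out the read-through row of TXNDC5, which held 664 ± 33.4 CPM in vehicle and 1065 ± 14.8 CPM under Tg. Per length, PDIA4 made up 16.8% ± 0.897 of the family in vehicle, 20.5% ± 1.28 with AA147, 27.3% ± 0.454 at 30 µM AA132 and 41.7% ± 0.201 under Tg. It passed from the third place to the first under Tg, at 1165 ± 30.7 CPM per kb. The share of P4HB was 37.5% ± 1.39 in vehicle, 30.5% ± 0.507 at 30 µM and 24.1% ± 0.411 under Tg, while that of PDIA6 stayed between 20.8% and 22.9% in these conditions and the share of TXNDC12 was 7.90% ± 0.0300 in vehicle and 2.73% ± 0.0663 under Tg. With the read-through reads counted as TXNDC5, PDIA4 came after P4HB, TXNDC5 and PDIA6 in vehicle and was again first under Tg, and its shares were 13.6% ± 0.699 in vehicle and 36.9% ± 0.205 under Tg. Shares are given with SD over 3 libraries and were not tested.

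**Figure D4:**
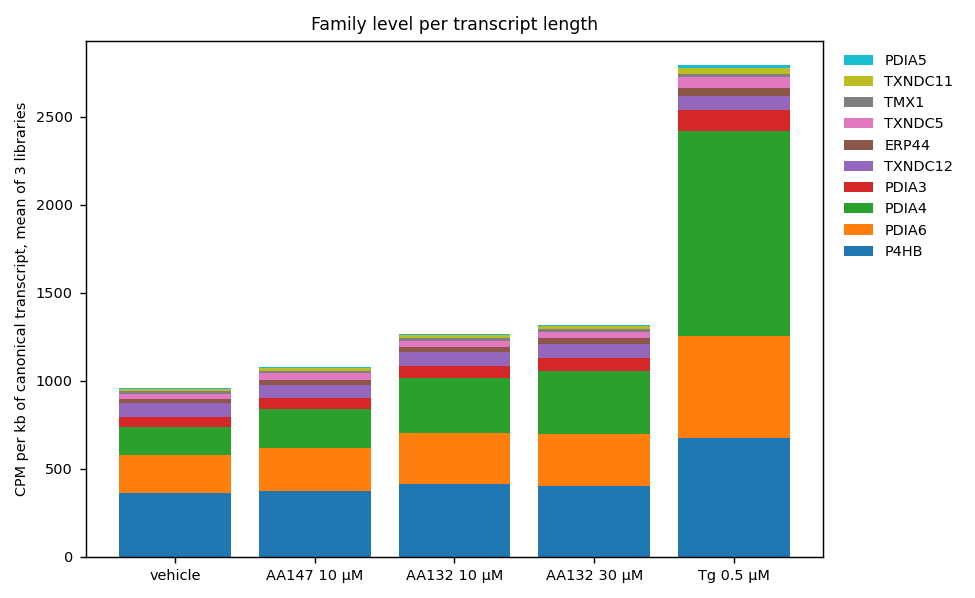
Mean CPM per kb of canonical transcript (y axis, stacked bars, 3 libraries each) of the 10 members in vehicle, AA147 at 10 µM, AA132 at 10 and 30 µM and Tg at 0.5 µM. The PDIA4 segment grows from 161 CPM per kb in vehicle to 1165 under Tg, where it exceeds P4HB. The read-through row of TXNDC5 is left out.

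Over the 24 AA132 libraries, the genes whose log2 CPM tracked PDIA4 most closely were HMOX1 (Pearson r = 0.99), HSPA5 (0.99), HYOU1 (0.99), DNAJB11 (0.98) and HSP90B1 (0.98). HMOX1 encodes haem oxygenase, an oxidative stress gene, and the others are ER chaperones or cofactors. Of the members, PDIA3 (0.95), PDIA6 (0.95), ERP44 (0.90) and P4HB (0.85) tracked it most closely, TXNDC11 (0.74), TXNDC12 (0.66) and PDIA5 (0.52) lay between, and TMX1 (0.14) and TXNDC5 (-1.23e-03) were lowest. The genes closest to P4HB were TMEM57 (0.92), EIF5 (0.92), CALR (0.91), XBP1 (0.91) and CDKN1A (0.90). These libraries share the dose series and the libraries that went against it, and the values describe likeness of pattern only.

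Among genes that pass electrons to or from the family, 8 of 9 were tested (GPX7 was below the filter). Under Tg 3 were called higher and 3 lower, where 16.2% and 15.0% of all genes tested were, respectively. ERO1B, an oxidase that recharges isomerases, rose by 1.68 (1.42 to 1.93) on the log2 scale and GPX8, an ER peroxidase, by 0.89 (0.75 to 1.02), while QSOX1 (-0.35), VKORC1 (-0.33) and PRDX4 (-0.22), other oxidant routes, fell. In vehicle a single library was high for QSOX1 (95.4 against 75.7 and 77.1 CPM), VKORC1 (85.1 against 62.2 and 67.7) and PRDX4 (338 against 261 and 270). The Tg libraries of QSOX1 and VKORC1 lay below all vehicle libraries, and those of PRDX4 (236 to 265 CPM) overlapped them. VKORC1L1 rose by 0.35, and its Tg libraries (22.4 to 27.7 CPM) overlapped its vehicle libraries (16.6 to 23.1 CPM). With AA132 at 30 µM, ERO1B (0.55; edgeR adjusted p = 0.00548) and GPX8 (0.34; 0.00121) rose, where 3.86% of all genes tested did. The ERO1B vehicle libraries held 17.0, 26.3 and 31.4 CPM, so the size of its change depends on the lowest of them. All lay below its 30 µM libraries (33.4 to 38.0 CPM). With AA147 0 of 8 were called by edgeR, DESeq2 or limma voom (1 at an unadjusted p under 0.05).

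Of 14 further ER thioredoxin-fold genes, 9 were tested (PDILT, ERP27, AGR2 and AGR3 were below the filter, and SELENOF was not matched). Under Tg 6 rose, led by DNAJC10 (1.02; 0.88 to 1.16), a reductase of ER-associated degradation, and TMX3 (0.66), and 0 fell. In vehicle a single TMX3 library was low (31.8 against 60.2 and 61.8 CPM), so the size of the TMX3 change depends on that library. The TMX3 Tg libraries (78.2 to 84.6 CPM) lay above all vehicle libraries. Of all genes tested, 16.2% rose and 15.0% fell under Tg. By edgeR, 0 of the 9 were called against vehicle at any AA132 dose or with AA147, with 0 or 1 at an unadjusted p under 0.05 in each of these comparisons. DESeq2 called 1, TXNDC15 at 30 µM (log2 0.22, edgeR adjusted p = 0.0596), named after its values were seen, and limma voom called 0. Over the AA132 doses the slope of 2 of the 9, DNAJC10 (0.091 per 10-fold dose; edgeR adjusted p = 0.000456) and TXNDC15 (0.062; 0.0405), was called above 0 by edgeR, and DESeq2 and limma voom also called 2. The edgeR slope was called above 0 for 9.82% of all genes tested. The median log2 fold change of the 9 was 0.29 under Tg and 0.081 at 30 µM AA132.

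Among 9 genes of known partners, 4 rose and 2 fell under Tg, where 16.2% and 15.0% of all genes tested did, respectively. HSPA5, which works with PDIA6, rose by 3.52, and the lectin chaperones CANX and CALR, which bring PDIA3 to glycoproteins, by 1.41 and 1.32. TAPBP, the partner of PDIA3 in peptide loading, fell by 0.33 (log2 -0.33; edgeR adjusted p = 0.00724), and P4HA3, a catalytic partner of P4HB, changed by -0.94 (-1.65 to -0.23; edgeR adjusted p = 0.0381). P4HA3 was barely expressed, with 0.923 to 1.17 CPM in the vehicle libraries and 0.300 to 0.898 CPM in the Tg libraries, so its change is uncertain. At 30 µM AA132, 5 rose and 0 fell: HSPA5 (1.46), CALR (0.58), CANX (0.58), PPIB (0.31) and P4HA2 (0.30). Of all genes tested, 3.86% were called higher there. The PPIB libraries at 30 µM (260 to 297 CPM) overlapped those of vehicle (185, 208 and 273 CPM). For CANX a single vehicle library was low (622 against 854 and 905 CPM), and all lay below its 30 µM libraries (1101 to 1248 CPM). With AA147 0 of 9 were called by edgeR (4 at an unadjusted p under 0.05) or limma voom, and DESeq2 called HSPA5, 1 of 9. The edgeR values were log2 fold changes of 0.70 for HSPA5 (edgeR adjusted p = 0.114), 0.37 for CALR and 0.36 for CANX.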

How the data were processed

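CPM values are TMM-scaled and were computed here. RNA was sequenced from HEK293T cells, with libraries made and run on a DNBSEQ platform by a service provider, per the labels' protocols. The authors deposited 1 table of expected counts (estimated reads per gene, which need not be whole), not scaled between libraries. Build GRCh38.p7 is named per the submitters' processing notes. The aligner, counter, annotation and use of strand are not given in the sources used here. Of 38074 rows, 102 shared 47 names and were summed. A floor of 0.009, in 43.5% of cells, was set to 0, and values were rounded. All 11 conditions entered 1 edgeR 4.0.16 fit (R 4.3.3; TMM, filterByExpr, quasi-likelihood F-test), with calls at a Benjamini-Hochberg adjusted p under 0.05 over all genes tested, and intervals at 95%. The script was tested on simulated data. Within conditions, pairs of libraries had a chi-square per degree of freedom of 4.48 to 59.4, above counting error. Count intervals would cover counting error only and are not given.

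The members and lists were chosen with earlier results of these data known. All 10 members are named. From 3 further lists (electron carriers, other thioredoxin-fold genes, partners), up to 3 called genes each way with the largest change are named per comparison, with HSPA5, DNAJB9, DDIT3 and HMOX1 as permitted references and the 5 genes most like PDIA4 and P4HB over the AA132 libraries. P4HA2 and other list members outside that rule were named after their values were seen. Markers of HEK293T cells and of other cell types served as a check. Alternatives were other size factors, DESeq2 1.42.0, limma 3.58.1 voom, no filter, a replicate block, a 1.2-fold minimum, only the groups compared, and leaving out each library. Adding read-through reads to TXNDC5, leaving out the 2 libraries that went against their dose and leaving out the 4 that stand apart were chosen after seeing the data. GENCODE v44 on GRCh38 gave positions and promoter windows. It played no part in counting.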

Additional observations from a re-analysis of the deposited data

How the results depend on the processing

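Each log2 fold change of a member was recomputed under each alternative, 2260 values for 130 results. Of these, 2093 kept their direction and side of the threshold, 76 turned in sign with no call in either fit, 39 newly passed, 52 no longer passed and 0 called values reversed. The counts of members called that moved by more than 1.5 times were as follows, and the cause was not tested. For AA147 against 0 in the main fit, DESeq2 and no filter on low counts each gave 1, leaving out the 2 libraries that went against their dose gave 1, and leaving out the 4 that stand apart gave 2. At 3 µM AA132, against 1, limma voom, the replicate block, the 1.2-fold minimum and the fit of only the groups compared each gave 0. At 6, 10, 15 and 30 µM, the 1.2-fold minimum and the fit of only the groups compared each gave 1. Without the 4 libraries that stand apart, 6 µM gave 6 and 10 µM gave 7, and DESeq2 gave 5 at 10 µM. For AA132 against AA147, against 0, DESeq2, no filter and leaving out the 2 libraries each gave 1, and leaving out the 4 gave 3. The slope count fell from 7 to 1 with the 1.2-fold minimum per 10-fold dose. These counts are given without the share of all genes called in the same fit.

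Leaving out each library in turn gave 8 to 8 members for Tg, 0 to 0 for AA147 and for AA132 at 0.1, 0.3 and 1 µM, 0 to 1 at 3 µM, 2 to 5 at 6 µM, 2 to 5 at 10 µM, 4 to 5 at 15 µM, 5 to 7 at 30 µM, 0 to 2 for AA132 against AA147, 8 to 8 for AA132 30 µM against Tg and 7 to 7 for the slope. These counts, and those with a replicate block below, are also given without the share of all genes called in the same fit. They are not read as results about the family.

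The column numbers gave no clear pairing of the libraries, but a partial effect of number cannot be told from the values below. Of the 4 libraries that stand apart, those of vehicle, AA132 10 µM and AA147 are number 1, and that of AA132 30 µM is number 3. Over 165 same-numbered pairs the correlation of deviations from the group means had a median of 0.013 (-0.535 to 0.455), 32 were over 0.1, and 16 of 33 libraries correlated best with their own number. With a replicate block the PDIA4 adjusted p at 3 µM was 0.0504 (log2 0.50), which left 0 members called there, and the other counts of members were 8 for Tg, 0 for AA147, 3 at 6 and 10 µM, 5 at 15 and 30 µM and 7 for the slope.

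Depth limits PDIA5 most, with 370 counts in its lowest library. Of the members that share exon bases with another gene, TXNDC5 alone was refitted with the reads of both. The overlaps of TXNDC12 and PDIA6, and the antisense overlaps of P4HB (21.7% of canonical exon bases), PDIA3 (16.9% with ELL3) and TXNDC11 (12.2%), were not tested.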
